A study of Homo sapiens with 6 samples.

Results

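Hyaluronan is a long, unsulfated sugar polymer of the extracellular matrix. The genes followed here make it, bind it or break it down, and they are 10 of the 58735 genes in the deposited tables. The 10 were taken by gene name: the synthases HAS1, HAS2 and HAS3, the receptors CD44 and HMMR, the hyaluronidases HYAL1, HYAL2 and HYAL3, the hyaluronan-degrading protein CEMIP and the hyaluronan-binding protein TNFAIP6. They were grouped by function with earlier results of these same libraries known, so the values below describe them and are no independent support for a change in hyaluronan genes as a group.

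The cells were A549, a human lung adenocarcinoma line grown in RPMI medium with FBS, and RNA was sequenced from 3 groups of 2 libraries. The WT group had been stably transduced with a PLVX lentivirus carrying HOXB9, a homeobox transcription factor. The T133A group had received the same vector with HOXB9-T133A, in which threonine is replaced by alanine, and the KO group is labelled as carrying PLVX-HOXB9 KO. All 3 groups thus carry a lentivirus, and the libraries include no empty-vector or untreated cells. Whether the WT and T133A cells keep their endogenous HOXB9, how the knockout was made, and whether a group is 1 clone is not given in the labels. Nor do they state that paired libraries are separate cultures. The p-values therefore reflect spread among these libraries alone, which may be technical. That spread was unequal, while the fit estimated it over the 3 groups together. Chi-square per degree of freedom between the 2 libraries of a group was 2.42 in WT, 9.68 in T133A and 11.4 in KO. The difference between the T133A libraries correlated with GC content (Spearman 0.51, against -0.18 in WT and -0.29 in KO).

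HOXB9 itself, on chromosome 17, had 3807 and 3889 counts in the WT libraries. T133A libraries had 4777 and 3577, and KO libraries 239 and 286. It was 14.7-fold lower in KO than in WT (log2 fold change -3.88, SE 0.135, edgeR's quasi-likelihood test, Benjamini-Hochberg adjusted p = 3.27e-16). T133A and WT overlapped. Gene counts cannot separate a vector transcript from the cells' own, nor show the T133A change.

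Libraries held 16299059 to 18745432 counts, and mitochondrial genes took 4.45% to 8.91% of them, with both KO libraries (5.60% and 4.45%) under all others. Of the genes, 16340 had enough counts for a test. All 6 epithelial markers were above 1 CPM in every group, with sums of 7899 to 10085 CPM (CPM stands for counts scaled to a common library size with TMM factors). The 7 fibroblast markers summed to 40.4 to 42.4 CPM in WT and T133A and to 9.71 to 10.7 CPM in KO. There COL1A1, at 6.43 and 6.36 CPM in WT, made up 9.04 and 9.90 CPM of the sum, and DCN was at 0 in both libraries. The fibroblast markers COL1A2, PDGFRB and PDGFRA had at most 6 counts in any library, WT included. The 6 haematopoietic markers summed to 5.58 to 13.3 CPM and the 4 endothelial ones to 0.304 to 2.23 CPM. The 4 mesothelial ones summed to 37.1 to 37.5 CPM in WT, 20.1 to 25.6 in T133A and 61.1 to 66.4 in KO. UPK3B was the largest part, with means of 27.5, 12.6 and 47.5 CPM in these groups. The mesothelial markers did not move together: from WT to KO, MSLN fell from 2.96 to 0.714 CPM. CALB2 rose from 1.02 to 7.45 CPM and WT1 from 5.76 to 8.07 CPM. The part of these differences in the values below was not tested. In bulk RNA, fewer cells of a kind and less RNA per cell cannot be told apart.

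As background, the 3 HAS enzymes sit in the plasma membrane, join UDP-glucuronic acid and UDP-N-acetylglucosamine into the chain and push it out of the cell. CD44 is the main cell-surface receptor for the polymer, and many epithelial tumours carry it at high levels. HYAL1 and HYAL2 cut hyaluronan, HYAL1 in lysosomes and HYAL2 at the cell surface, while CEMIP drives its breakdown outside the lysosome. Lung matrix contains hyaluronan, which accumulates in injury and in tumours. Only transcripts were measured here, not the polymer or its chain length.

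Of the 10 genes, 8 passed the low-count filter and were tested. HAS1 and TNFAIP6 did not, and were described by counts. In T133A compared with WT, 2 of the 8 rose (HAS3 and CEMIP) and none fell at an adjusted p under 0.05, beside 9.55% of all genes called (5.58% higher, 3.97% lower). In KO compared with WT, HAS3 and CD44 rose and HAS2 and CEMIP fell, beside 46.6% of all genes (23.6% higher, 23.0% lower). In T133A compared with KO, HAS2 and CEMIP were higher and HAS3 and HMMR lower, beside 39.9% of all genes (20.3% higher, 19.6% lower). The median log2 fold change of the 8 was 0.36, 0.14 and -0.12 in the same order of comparisons, against 0.00, 0.00 and -0.01 over all genes. In T133A with WT the count was 1 with library size as the only scaling and 5 with a correction for GC content and length. Of all genes, 1486 and 2437 were called under these settings, against 1560 in the main analysis. With a library left out, the count of hyaluronan genes and that of all genes both moved up and down. The first and second comparisons share the WT libraries, and nothing about the group is read from these counts or medians.

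**Figure D1:**
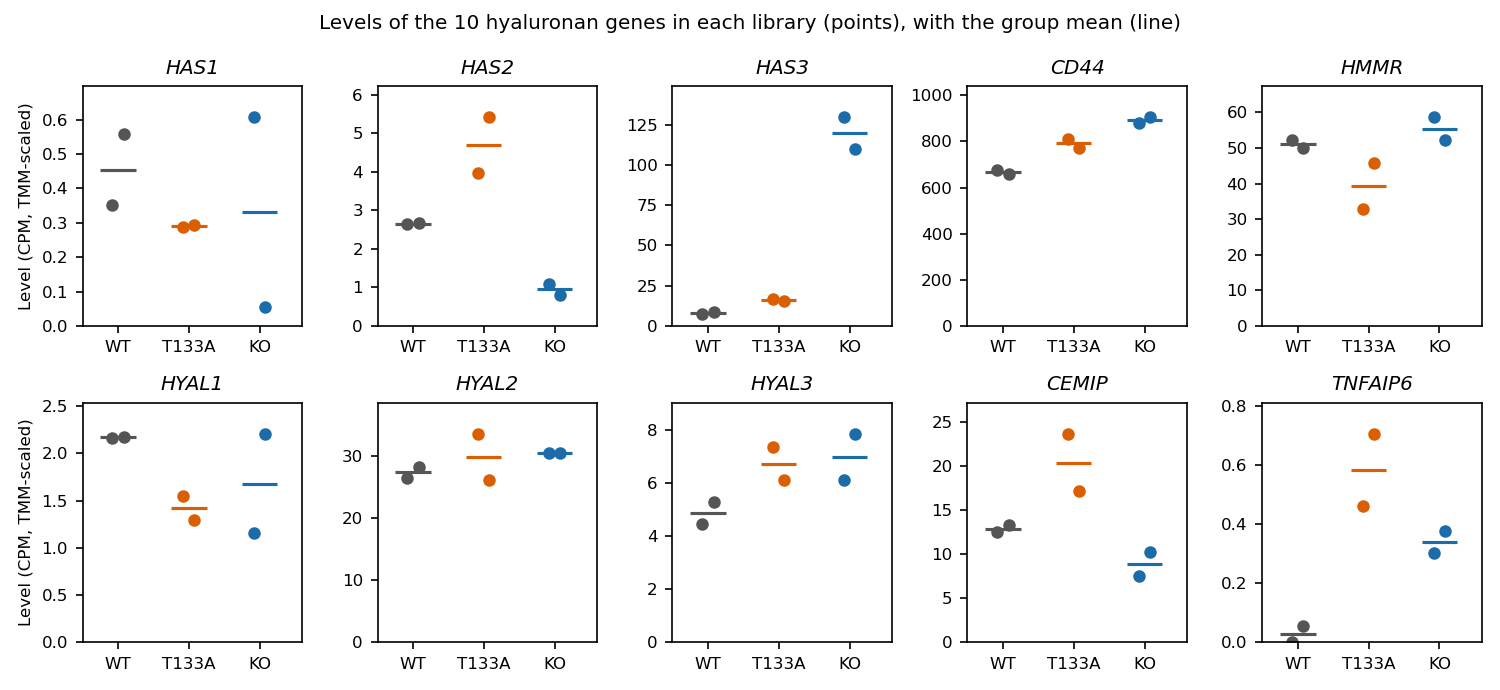
Level of each of the 10 hyaluronan genes (y axes, CPM after TMM scaling, each starting at 0) in the WT, T133A and KO groups (x axes); points are libraries and lines are the means of 2. HAS3 stands at 109.9 and 129.5 CPM in KO against 7.54 to 16.9 CPM elsewhere, and HAS2 is lowest in KO.

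Among the synthases, HAS3 showed the largest difference of the 8 genes tested. HAS3 (ENSG00000103044, chr16:69105564-69118719 on the plus strand) makes hyaluronan from the plasma membrane like its relatives. It stood at 7.54 and 8.87 CPM in WT, 16.9 and 15.6 CPM in T133A, and 129.5 and 109.9 CPM in KO. The 3 groups did not overlap, and WT was lowest. HAS3 rose 14.6-fold in KO over WT (log2 fold change 3.86, SE 0.142, edgeR adjusted p = 9.43e-16), with group means of 119.7 ± 13.9 and 8.20 ± 0.938 CPM (SD, n = 2). It rose 1.98-fold in T133A over WT (0.99, SE 0.149, edgeR adjusted p = 7.67e-05), to 16.3 ± 0.893 CPM. T133A was 7.35-fold below KO (-2.88, SE 0.132, edgeR adjusted p = 4.15e-14). With each library left out in turn, the log2 fold change was 3.76 to 3.98 for KO with WT and 0.87 to 1.10 for T133A with WT, and all passed the test.

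The promoter of HAS3 is shown because this gene carries the largest difference, with the E-box hexamer CACGTG in capitals. The 300 bases run from 250 before to 50 after the RefSeq start site (chr16:69107290-69107589, plus strand, GRCh38.p14), and their GC content is 67.0%. That start site lies inside the gene span of the deposited tables, so it is one of several possible starts.
HAS3: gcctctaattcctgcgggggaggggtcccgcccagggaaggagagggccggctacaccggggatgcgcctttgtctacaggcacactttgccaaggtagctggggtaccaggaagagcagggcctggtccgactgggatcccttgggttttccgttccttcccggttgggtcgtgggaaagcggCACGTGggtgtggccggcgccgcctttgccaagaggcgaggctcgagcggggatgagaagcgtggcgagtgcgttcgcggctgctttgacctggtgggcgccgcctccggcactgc
The single match begins at position -66 from the start site, counting the start site as 0. Of 35116 RefSeq promoter windows of this length, 7.26% hold CACGTG, which reads the same on both strands. A match is a description of the letters, not a bound site.

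HAS2, on chromosome 8, is the synthase that embryonic development depends on. WT libraries had 45 and 48 counts, T133A libraries 69 and 92, and KO libraries 18 and 15. On the CPM scale these were 2.63 and 2.68, 3.97 and 5.41, and 1.09 and 0.807. The 3 groups did not overlap, with KO lowest and T133A highest. HAS2 fell 2.80-fold in KO from WT (log2 fold change -1.48, SE 0.340, edgeR adjusted p = 0.00108). The T133A value was 0.82 above WT on the log2 scale (SE 0.276) and did not pass the test (edgeR adjusted p = 0.0653), but did when T133A replicate 1 was left out (1.04, adjusted p = 0.0375) or GC content and length were corrected for (0.94, adjusted p = 0.0155). T133A was 4.93-fold above KO (2.30, SE 0.321, edgeR adjusted p = 4.83e-06).

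HAS1 (chr19:51713112-51723994, minus strand), was close to the detection limit, where 3 counts correspond to 0.161 to 0.182 CPM. WT libraries had 6 and 10 counts, T133A libraries 5 and 5, and KO libraries 10 and 1. The KO libraries spanned the whole range of the others. The ratio of summed, scaled counts was 0.687 for KO to WT (exact 95% interval 0.288 to 1.58) and 0.637 for T133A to WT (0.258 to 1.49), intervals that cover counting error only. A difference in HAS1 was not detectable at this depth.

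Since HAS2 and HAS3 differ in length, their proportions were compared per kilobase of gene length. HAS3 made up 69.4% (Wilson 95% interval 61.8 to 76.1) and 72.4% (65.6 to 78.3) of the HAS2 and HAS3 transcripts in the WT libraries. Its share was 77.1% (72.2 to 81.4) and 69.6% (64.4 to 74.4) in T133A, overlapping WT. In KO it was 98.9% (98.3 to 99.3) and 99.1% (98.5 to 99.4), above every other library. The summed level of the 3 synthases was 2.39 ± 0.250 CPM per kb in WT, 4.33 ± 0.0767 in T133A and 23.0 ± 2.85 in KO (SD, n = 2). The intervals cover counting error within a library only. These shares and sums restate the HAS2 and HAS3 values above and were not tested separately.

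**Figure D2:**
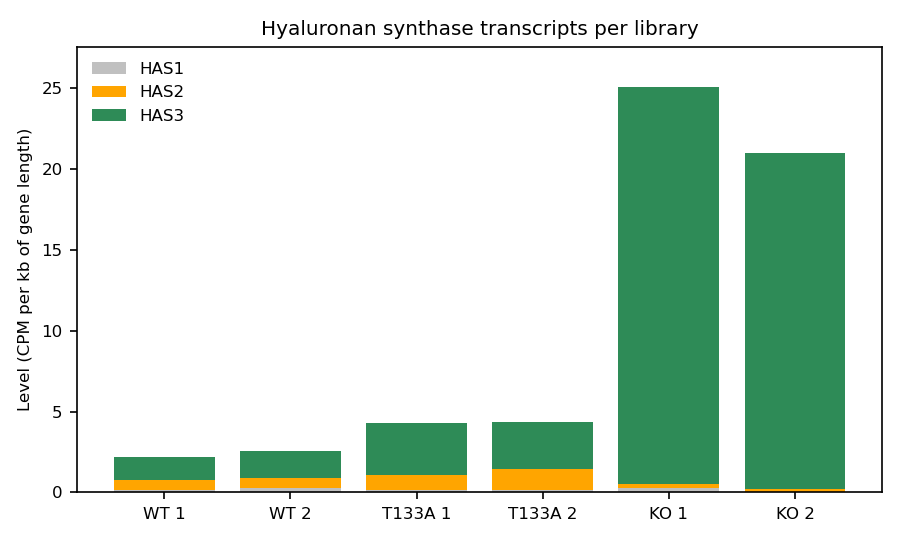
Summed level of the 3 hyaluronan synthases in each library (y axis, CPM per kb of gene length; x axis, library), stacked by gene from HAS1 at the base to HAS3 at the top. The KO bars reach 25.02 and 21.00 CPM per kb and are nearly all HAS3, while WT and T133A bars stay between 2.21 and 4.38.

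Annotated neighbours share exon bases with HAS2, HAS3, CEMIP, CD44 and HMMR, and the strand setting of the counting is not given in the sources used here. HAS3 shares 365 exon bases (6.90% of its length) with CHTF8 on the other strand, a gene of 1169 to 1945 counts that rose by 0.35 on the log2 scale in KO over WT (edgeR adjusted p = 0.0202). Its call was lost with the GC and length correction (0.15, edgeR adjusted p = 0.149) and without WT replicate 1 (0.41, 0.0544), WT replicate 2 (0.29, 0.178) or KO replicate 2 (0.28, 0.124). HAS2 shares 201 bases (4.80%) with its antisense gene HAS2-AS1, with counts of 13 and 18 (WT), 25 and 15 (T133A) and 8 and 2 (KO). How many HAS2 counts come from it cannot be told from the tables. CEMIP shares 224 bases (2.94%) with MESD on the other strand, a gene of 1529 to 1719 counts. MESD was at 0.05 on the log2 scale in T133A with WT and 0.04 in KO with WT. Its part in the CEMIP values was not tested. CD44 shares 84 bases (0.840%) with CD44-AS1 and HMMR 113 (2.87%) with HMMR-AS1. Both are antisense genes with at most 5 counts in any library.

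CD44 (ENSG00000026508, chr11:35138870-35232402, plus strand) was the most abundant of the 10 genes per kilobase in every group. Its level was 675.4 and 657.9 CPM in WT, 812.4 and 771.3 CPM in T133A, and 881.0 and 904.9 CPM in KO. WT was lowest and KO highest, with no overlap between groups. CD44 rose 1.34-fold in KO over WT (log2 fold change 0.42, SE 0.100, edgeR adjusted p = 0.00151) and passed in all 6 fits that left out 1 library (0.39 to 0.46). The T133A value was 0.25 above WT (SE 0.100, edgeR adjusted p = 0.131), and it passed when T133A replicate 2 was left out (0.29, adjusted p = 0.0381) and once GC content and length were corrected for (0.25, adjusted p = 0.0273). T133A with KO was at -0.17 (SE 0.100, edgeR adjusted p = 0.179), and passed with library size as the only scaling (-0.21, 0.0464) and with the GC and length correction (-0.27, 0.00588). Gene counts do not separate the standard form of CD44 from its variant-exon isoforms.

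HMMR (ENSG00000072571, chr5:163460203-163491945, plus strand) encodes RHAMM, which binds hyaluronan at the cell surface and works at the mitotic spindle inside the cell. It stood at 52.2 and 49.9 CPM in WT, 33.0 and 45.9 CPM in T133A, and 58.6 and 52.2 CPM in KO. T133A was below both other groups, and its libraries differed from each other more than those of WT or KO. T133A was 1.40-fold below KO (log2 fold change -0.49, SE 0.136, edgeR adjusted p = 0.00606). That call was lost without T133A replicate 1 (-0.25, edgeR adjusted p = 0.136) or KO replicate 1 (-0.43, adjusted p = 0.0581). Against WT, the T133A value of -0.37 (SE 0.136, edgeR adjusted p = 0.0909) did not pass, except without T133A replicate 2 (-0.62, adjusted p = 4.99e-04), and neither did the KO value of 0.12 (SE 0.134, edgeR adjusted p = 0.494). With a correction for GC content and length, the KO value passed at 0.39 (adjusted p = 7.42e-04) and the T133A value at -0.27 (adjusted p = 0.0449).

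Because HMMR is transcribed with the cell cycle, it was set beside 20 other mitosis genes, all tested. In T133A with WT, 6 of the 20 fell and none rose, with a median log2 fold change of -0.23, beside 9.55% of all genes called (3.97% lower) and an all-gene median of 0.00. CENPF, a kinetochore protein, changed by -0.67 (edgeR adjusted p = 2.59e-04), CENPE, a kinetochore motor, by -0.71 (0.00107) and ASPM, a spindle pole protein, by -0.58 (0.00407). In KO with WT, 10 rose and 2 fell (median 0.26), beside 46.6% of all genes called and an all-gene median of 0.00. The mitotic kinase PLK1 was at 1.06 (edgeR adjusted p = 4.59e-08), cyclin CCNB1 at 0.81 (6.95e-07) and the spindle factor TPX2 at 0.76 (1.81e-06). The 2 that fell were CENPE at -0.53 (edgeR adjusted p = 0.00275) and ASPM at -0.74 (6.30e-05), both also lower in T133A with WT. In T133A with KO, 16 fell and none rose (median -0.46), beside 39.9% of all genes called (19.6% lower) and an all-gene median of -0.01, including PLK1 at -1.11 (edgeR adjusted p = 2.68e-08), CCNB1 at -0.81 (7.61e-07) and the kinesin KIF20A at -0.74 (1.60e-05). The HMMR differences of -0.37, 0.12 and -0.49 lay on the same side of 0 as these medians. However, the 0.12 was smaller than its SE of 0.134, and the third difference follows from the first 2. No link is read from these signs. The list was chosen with earlier results known. Its counts in T133A with WT and in KO with WT moved with a library left out, as did the numbers of all genes called.

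**Figure D3:**
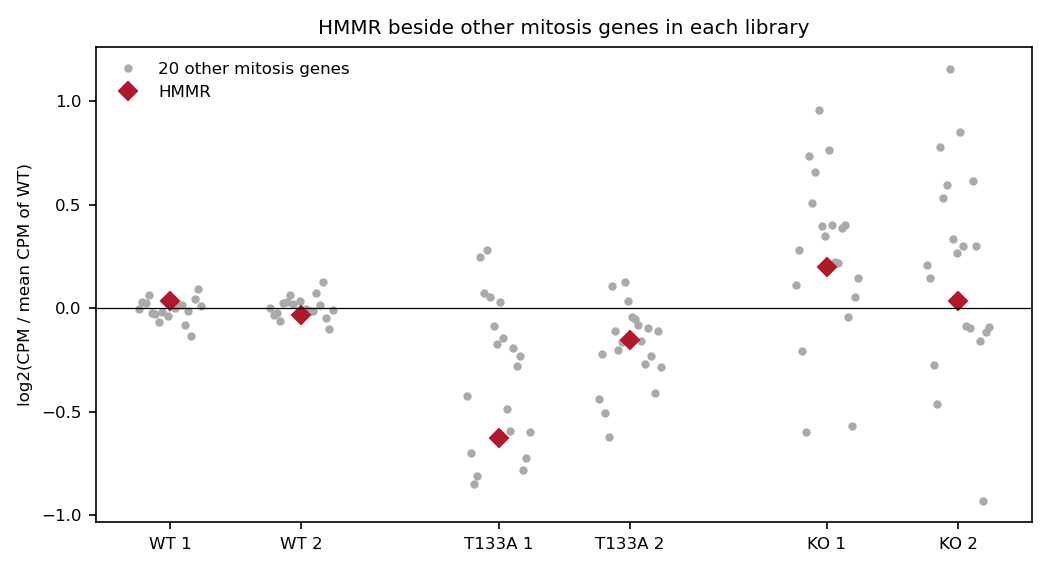
Level of HMMR (red diamond) and of 20 other mitosis genes (grey points) in each library (x axis), as the log2 ratio of CPM to the gene's WT mean (y axis). HMMR lies among the other genes in every library and is lowest in T133A replicate 1.

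The HMMR promoter is shown because it holds motif pairs that cell-cycle promoters are known for, with 5 CCAAT matches, on either strand (ATTGG is its reverse complement), and 2 TTTGAA matches in capitals. The window is chr5:163460382-163460681, plus strand, GRCh38.p14, from RefSeq, with a GC content of 53.3%.
HMMR: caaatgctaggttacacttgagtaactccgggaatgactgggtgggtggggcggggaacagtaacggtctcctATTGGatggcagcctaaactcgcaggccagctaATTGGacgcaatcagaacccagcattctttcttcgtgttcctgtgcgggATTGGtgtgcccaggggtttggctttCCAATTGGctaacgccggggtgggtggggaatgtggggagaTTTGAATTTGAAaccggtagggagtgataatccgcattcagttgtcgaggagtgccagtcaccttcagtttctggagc
Of all RefSeq windows of this length, 34.6% hold at least 1 CCAAT and 0.359% hold 5 or more. At least 1 TTTGAA occurs in 15.2% and 2 or more in 2.27%, and 5.90% hold both motifs. A CCAAT and an ATTGG match overlap within CCAATTGG. The first TTTGAA begins 28 bases before the RefSeq start site. That site lies inside the HMMR gene span given above, so it is one of several possible starts.

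The 3 hyaluronidases lie side by side on chromosome 3, and none passed the test in any comparison. HYAL2, anchored at the cell surface, stood at 27.3 ± 1.27 CPM in WT, 29.8 ± 5.20 in T133A and 30.5 ± 0.00758 in KO (SD, n = 2). Its log2 fold changes were 0.13 (SE 0.137) for T133A and 0.16 (SE 0.137) for KO, both with WT, at edgeR adjusted p = 0.636 and 0.364. HYAL3 stood at 4.44 and 5.30 CPM in WT, 7.36 and 6.11 CPM in T133A, and 6.13 and 7.86 CPM in KO. Both WT libraries were under all others. The KO value of 0.52 (SE 0.216) sat just outside the threshold with an edgeR adjusted p of 0.0507, and passed without either T133A library (0.52 and 0.53, adjusted p = 0.0379 and 0.0320) or KO replicate 1 (0.71, adjusted p = 0.0232), and in a fit of the WT and KO libraries alone (0.50, adjusted p = 0.0487). The T133A value for HYAL3 was 0.47 (edgeR adjusted p = 0.200).

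HYAL1, the lysosomal enzyme, was low, with counts of 37 and 39 (WT), 27 and 22 (T133A) and 19 and 41 (KO). The KO libraries spread over the whole range. The log2 fold changes with WT were -0.60 (SE 0.368) for T133A and -0.35 (SE 0.358) for KO (edgeR adjusted p = 0.348 and 0.440). Exon overlaps limit this locus: HYAL2 shares 509 bases (11.2%) with TUSC2 and HYAL3 shares 248 (12.2%) with NAA80 and 43 with IFRD2, all on the same strand. TUSC2 rose by 0.65 and IFRD2 by 0.88 on the log2 scale in KO over WT (edgeR adjusted p = 4.10e-04 and 8.65e-07). Their part in the HYAL2 and HYAL3 values was not tested.

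CEMIP (ENSG00000103888, chr15:80779343-80951776, plus strand), a secreted protein needed for hyaluronan depolymerisation in fibroblasts, moved in opposite directions in the T133A and KO groups. It stood at 12.5 and 13.3 CPM in WT, 23.6 and 17.1 CPM in T133A, and 7.47 and 10.2 CPM in KO. No groups overlapped, with T133A highest and KO lowest. CEMIP rose 1.58-fold in T133A over WT (log2 fold change 0.66, SE 0.176, edgeR adjusted p = 0.0170) and fell 1.45-fold in KO (-0.53, SE 0.187, edgeR adjusted p = 0.0227). T133A was 2.29-fold above KO (1.20, SE 0.182, edgeR adjusted p = 1.50e-05). The T133A call was lost with library size as the only scaling (0.59, edgeR adjusted p = 0.0503) and without WT replicate 1 (0.61, 0.117), WT replicate 2 (0.70, 0.0512) or T133A replicate 1 (0.43, 0.184). The KO call was lost without WT replicate 2 (-0.49, edgeR adjusted p = 0.0937) or KO replicate 1 (-0.31, 0.248).

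The CEMIP promoter is shown because CEMIP passed the test in all 3 comparisons, with its TATA hexamer TATAAA in capitals (chr15:80779120-80779419, plus strand, GRCh38.p14, from RefSeq, GC content 73.0%).
CEMIP: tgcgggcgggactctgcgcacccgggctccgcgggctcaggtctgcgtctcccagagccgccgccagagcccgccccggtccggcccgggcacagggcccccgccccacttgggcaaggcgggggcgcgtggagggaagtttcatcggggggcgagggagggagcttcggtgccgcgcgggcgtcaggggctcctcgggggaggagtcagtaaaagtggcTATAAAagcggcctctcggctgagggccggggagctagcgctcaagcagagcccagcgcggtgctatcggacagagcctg
The match begins at position -30 from the RefSeq start site, which also lies inside the CEMIP gene span given above. Of all RefSeq windows of this length, 11.5% hold TATAAA on either strand. Promoters were found for 9 of the 10 genes, in 10 windows. The other motif searched, the AP-1 site TGANTCA, had 1 match in TNFAIP6, against 7.71% of all windows. The TNFAIP6 window also held 2 CCAAT matches, and the HAS1 window held 1 TTTGAA. No match for any of the 5 motifs was found in the CD44, HYAL1, HYAL2 or HYAL3 windows, which says only that these letters are not there.

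TNFAIP6 (chr2:151357592-151380048, plus strand) encodes TSG-6, which transfers heavy chains of inter-alpha-trypsin inhibitor onto hyaluronan. WT libraries had 0 and 1 counts, T133A libraries 8 and 12, and KO libraries 5 and 7. WT was below both other groups. The ratio of summed, scaled counts to WT was 20.4 in T133A (exact 95% interval 3.26 to 844) and 12.0 in KO (1.77 to 513), and T133A to KO was 1.70 (0.791 to 3.81). With a single count in WT these ratios cover counting error only, and the main analysis made no test over libraries.

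**Figure D4:**
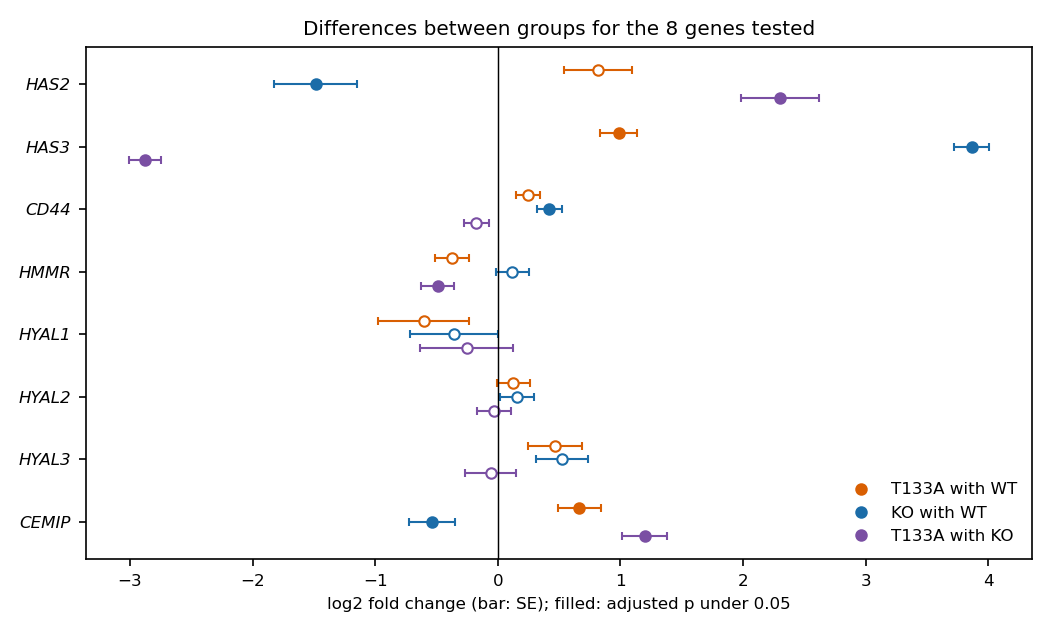
Log2 fold change with its SE (x axis) for the 8 tested genes (y axis) in 3 comparisons: T133A with WT (orange), KO with WT (blue) and T133A with KO (purple); filled points have an adjusted p under 0.05. HAS3 lies at 3.86 in KO with WT, and HAS2 and CEMIP lie on opposite sides of 0 in the comparisons with WT.

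Set in order per kilobase of gene length, CD44 led with 66.6, 79.2 and 89.3 CPM per kb in WT, T133A and KO. HAS3 stood in rank 6 in WT (1.55 CPM per kb), where its libraries overlapped those of CEMIP (1.69), in rank 5 in T133A (3.08), overlapping HYAL3 and CEMIP, and in rank 2 in KO (22.6), above HMMR (14.1). HMMR was second in WT (13.0) and T133A (10.03). HAS2 was in rank 8 in WT (0.633), 7 in T133A (1.12) and 8 in KO (0.227), where it could not be separated from TNFAIP6 (0.215) or HAS1 (0.147). Differences in rank between groups restate the values above.

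For the 5 genes called in any comparison, the profile over the 6 libraries was compared with those of 10793 or 10794 protein-coding genes with a mean of at least 5 CPM, by the Euclidean distance between centred log2(CPM + 1) values. Nearest to HAS3 were STC2 (distance 0.460), FOSL1 (0.501) and PADI3 (0.770). Nearest to HAS2 were NIPAL1 (0.229), NCOA7 (0.233) and GJA1 (0.266), and to CEMIP EFNB1 (0.261), PLXND1 (0.309) and ZSWIM4 (0.317). YTHDF1 was nearest to CD44 (0.0269), then MAPK11 (0.0623) and TBC1D13 (0.0700), and AHCTF1 to HMMR (0.0717), then CAVIN2 (0.0790) and CARNMT1 (0.108). With 6 libraries in 3 groups such likeness is a description.

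Other genes of the pathway were read from a list of 49 in 5 roles, of which 35 were tested. In T133A with WT 5 rose and 3 fell (median log2 fold change 0.05), in KO with WT 6 rose and 15 fell (median -0.18), and in T133A with KO 14 were higher and 7 lower (median 0.26). These are 22.9%, 60.0% and 60.0% of the 35, beside 9.55% (5.58% higher, 3.97% lower), 46.6% (23.6% and 23.0%) and 39.9% (20.3% and 19.6%) of all genes, whose medians were 0.00, 0.00 and -0.01. The list was chosen with earlier results known, and nothing particular to it is read from these shares. With a library left out, the count for T133A with WT moved up and down, as did the number of all genes called. LYVE1, SPAM1, ITIH1 and HAPLN4 had no counts in any library, which allows up to 3 counts each.

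Precursor supply to the synthases was listed with 9 genes, all tested. GFPT2, a rate-limiting enzyme of the hexosamine pathway that leads to UDP-N-acetylglucosamine, stood at 35.5 and 36.8 CPM in WT, 145.0 and 126.2 CPM in T133A, and 129.0 and 142.5 CPM in KO. WT was lowest, and T133A and KO overlapped. GFPT2 rose 3.75-fold in T133A (log2 fold change 1.91, SE 0.113, edgeR adjusted p = 3.06e-11) and 3.76-fold in KO (1.91, SE 0.113, edgeR adjusted p = 4.95e-12). UGDH, which makes UDP-glucuronic acid, fell from 552 ± 6.59 CPM in WT to 403 ± 21.4 in T133A and 435 ± 5.81 in KO (log2 fold changes -0.46 and -0.34, edgeR adjusted p = 0.00355 and 0.00667). Both UGDH calls were lost without WT replicate 1 (-0.45 in T133A and -0.33 in KO, edgeR adjusted p = 0.0882 and 0.105) or 2 (-0.48 and -0.36, 0.0513 and 0.0691).

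Hexokinase HK2 rose in T133A by 0.79 (edgeR adjusted p = 0.00881), a call lost without either WT library (0.81 and 0.74, adjusted p = 0.0602 and 0.0955) or T133A replicate 1 (0.61, adjusted p = 0.104). In KO with WT the isomerase GPI rose by 0.69 (edgeR adjusted p = 4.54e-05), while PGM3 changed by -0.66 (4.29e-04), GFPT1, the paralog of GFPT2, by -0.47 (5.93e-04) and UGP2 by -0.48 (0.00116). The GFPT1 call was lost with the GC and length correction (-0.18, edgeR adjusted p = 0.0720). T133A was above KO for HK2 (0.80, edgeR adjusted p = 0.00178), UGP2 (0.49, 0.00116) and PGM3 (0.44, 0.0130), and below it for GPI (-0.73, 2.83e-05). The PGM3 call was lost without T133A replicate 2 (0.36, edgeR adjusted p = 0.0542) or KO replicate 2 (0.27, 0.186).

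**Figure D5:**
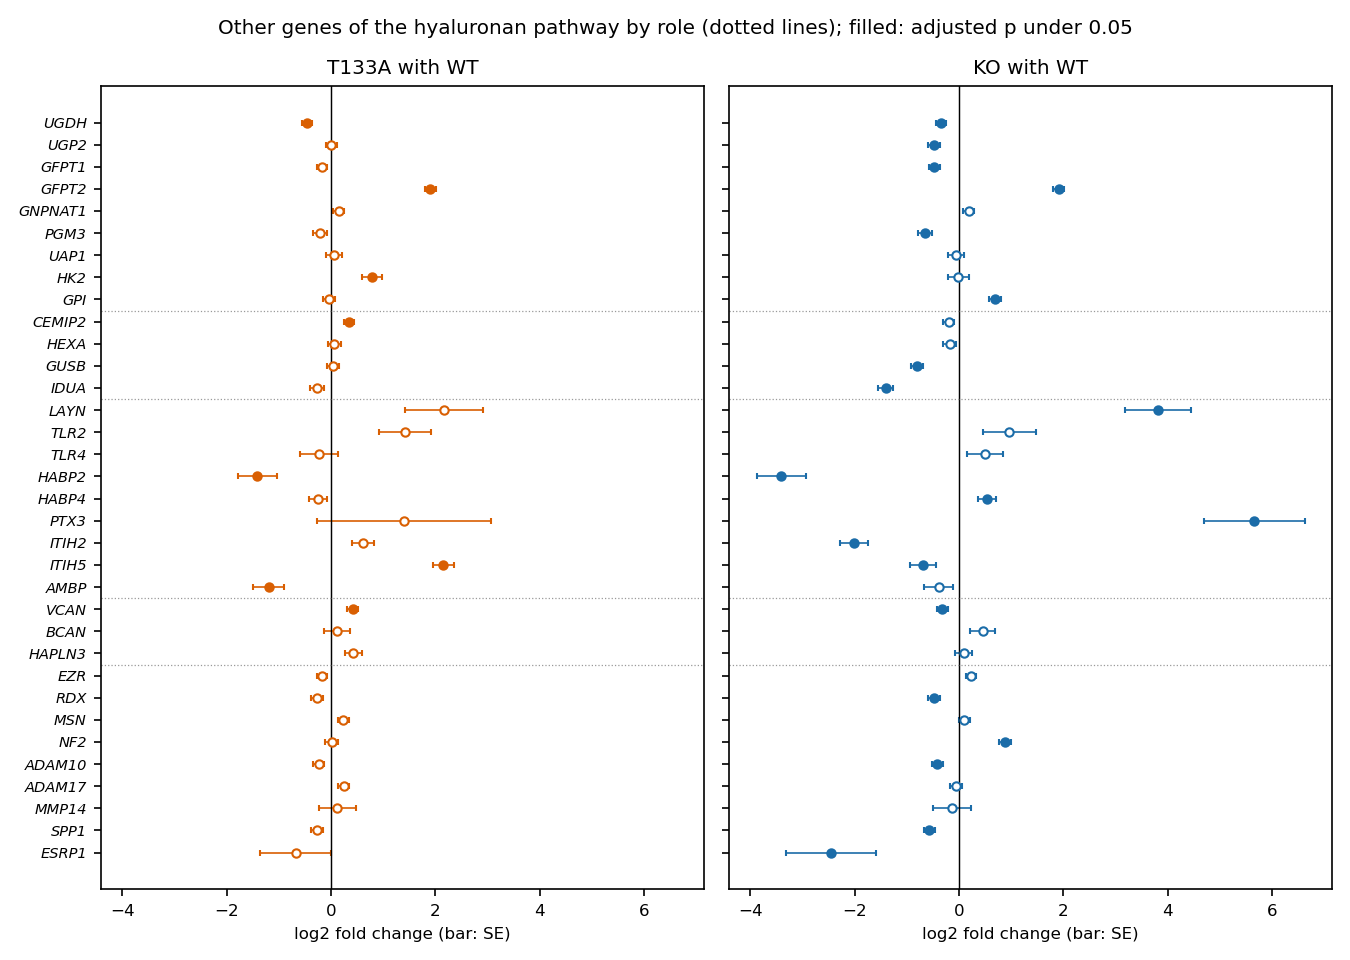
Log2 fold change with SE (x axis) of tested pathway genes (y axis; dotted lines part the roles of precursor supply, other breakdown, other receptors and binding proteins, proteoglycans and link proteins, and CD44 partners) in T133A with WT (left) and KO with WT (right). Filled points have an adjusted p under 0.05, and GFPT2 lies at 1.91 in both panels.

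Breakdown outside the hyaluronidases was listed as a role of its own. In KO with WT the lysosomal enzymes IDUA and GUSB fell, at -1.40 and -0.81 (edgeR adjusted p = 4.90e-08 and 8.02e-06). GUSB trims hyaluronan fragments in lysosomes, while IDUA acts on dermatan and heparan sulfate. IDUA stood at 38.2 and 39.4 CPM in WT, 35.8 and 28.8 CPM in T133A, and 16.0 and 13.5 in KO, with KO apart from both. T133A was above KO for IDUA (1.13, edgeR adjusted p = 1.54e-06) and GUSB (0.85, 4.46e-06). CEMIP2, a membrane relative of CEMIP on chromosome 9, stood at 222 ± 2.33 CPM in WT, 283 ± 10.1 in T133A and 194 ± 11.1 in KO (SD, n = 2). It was 1.46-fold higher in T133A than in KO (0.55, edgeR adjusted p = 1.16e-04). CEMIP2 rose 1.28-fold in T133A over WT (0.35, edgeR adjusted p = 0.0249), a call lost without either WT library (0.34 and 0.35, adjusted p = 0.319 and 0.270) and with the replicate number as a block (0.35, adjusted p = 0.0650).

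Receptors and binding proteins were the role with the widest spread, 9 of 15 tested. ITIH5, an inter-alpha-trypsin inhibitor heavy chain, stood at 4.27 and 3.01 CPM in WT, 16.8 and 15.6 CPM in T133A, and 2.25 and 2.26 CPM in KO. No groups overlapped. It rose 4.46-fold in T133A over WT (2.16, SE 0.204, edgeR adjusted p = 8.38e-08) and fell 1.61-fold in KO (-0.69, SE 0.249, edgeR adjusted p = 0.0275). T133A was 7.18-fold above KO (2.84, SE 0.218, edgeR adjusted p = 3.92e-10). The KO call was lost with DESeq2 (-0.70, adjusted p = 0.0543), limma-voom (-0.66, 0.0717) and the GC and length correction (-0.50, 0.0898), and without WT replicate 1 (-0.41, 0.369) or either KO library (-0.66 and -0.71, 0.0892 and 0.0867). ITIH2, another heavy chain, fell in KO from WT by 2.01 on the log2 scale (edgeR adjusted p = 1.81e-06) and was higher in T133A than in KO by 2.63 (2.19e-08). AMBP, whose product includes bikunin, the light chain of the same complex, changed by -1.20 in T133A (edgeR adjusted p = 0.0104), a call lost without T133A replicate 2 (-1.002, 0.0505).

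HABP2, a serine protease that binds hyaluronan, had counts of 61 and 78 (WT), 26 and 25 (T133A) and 1 and 12 (KO). It changed by -1.41 in T133A and -3.40 in KO (edgeR adjusted p = 0.0175 and 3.78e-06), and the T133A call was lost without WT replicate 2 (-1.27, 0.0955) and with DESeq2 (-1.42, 0.0556). The size of the KO value rests on few counts: it was -2.58 without KO replicate 1 and -5.88 without KO replicate 2, and the call held in both. HABP4, a hyaluronan-binding protein of the cell interior, was lower in T133A than in KO by 0.78 (-0.78, edgeR adjusted p = 7.02e-04). The membrane receptor layilin (LAYN) had counts of 1 and 4 (WT), 16 and 7 (T133A) and 40 and 33 (KO). The ratio of its summed counts in KO to WT was 14.6 (exact 95% interval 5.98 to 46.3), with an edgeR adjusted p of 3.77e-05. Its fitted log2 fold change ran from 3.19 without WT replicate 1 to 4.998 without WT replicate 2. PTX3, a pentraxin of the hyaluronan-rich matrix, had counts of 1 and 0 (WT), 0 and 3 (T133A) and 41 and 21 (KO). Its ratio in KO to WT was 61.97 (exact 95% interval 10.7 to 2487, edgeR adjusted p = 5.32e-05), and in T133A to KO it was 0.0493 (0.00990 to 0.151, edgeR adjusted p = 2.16e-04). With a library left out, the fitted log2 fold change of PTX3 ran from 4.77 (without WT replicate 2) to 7.98 (without WT replicate 1) in KO with WT and from -7.98 (without T133A replicate 2) to -3.27 (without T133A replicate 1) in T133A with KO. All these fits kept the call, and the exact intervals cover counting error only.

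Of the 3 tested proteoglycan and link protein genes, VCAN was the only one called. Versican, its product, is a large proteoglycan that binds hyaluronan. VCAN stood at 113.2 and 111.4 CPM in WT, 142.3 and 158.0 CPM in T133A, and 88.5 and 91.3 in KO, with no overlap between groups. It was 1.67-fold higher in T133A than in KO (0.74, SE 0.103, edgeR adjusted p = 4.88e-06). With WT, the T133A value of 0.42 (edgeR adjusted p = 0.00958) was lost without either WT library (0.43 and 0.40, adjusted p = 0.146 and 0.192). The KO value of -0.32 (edgeR adjusted p = 0.0143) was lost with the GC and length correction (-0.02, adjusted p = 0.825), without either WT library (-0.30 and -0.33, 0.150 and 0.106) and without KO replicate 1 (-0.28, 0.0731).

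Among 9 tested partners of CD44, its sheddases and a splicing regulator, none was called in T133A with WT, beside 9.55% of all genes. Nothing about these 9 as a group is read from that count. MSN, the most abundant and a link from CD44 to actin, was at 0.24 (edgeR adjusted p = 0.178), and passed without T133A replicate 2 (0.35, 0.0117). In KO with WT NF2, whose product merlin binds the CD44 tail, rose 1.84-fold (0.88, SE 0.119, edgeR adjusted p = 2.60e-06). SPP1, encoding the CD44 ligand osteopontin, fell by 0.56 on the log2 scale (edgeR adjusted p = 1.82e-04), and the actin linker RDX fell by 0.48 (0.00134). The sheddase ADAM10 was at -0.41 (edgeR adjusted p = 0.00292), lost with the GC and length correction (-0.05, 0.588) and without WT replicate 1 (-0.36, 0.0679). T133A lay below KO for NF2 (-0.87, edgeR adjusted p = 3.87e-06) and for EZR, a further actin linker (-0.41, 0.00281). T133A lay above KO for SPP1 (0.30, edgeR adjusted p = 0.0319) and the sheddase ADAM17 (0.29, 0.0367). These were lost under 9 and 10 of 15 alternative settings, with values of 0.13 to 0.30 and 0.20 to 0.31 there.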

How the data were processed

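RNA-seq of 6 A549 libraries was analysed from the deposited tables, 1 per library. The authors deposited whole-number counts per gene, not normalized, and FPKM values, per the file headers. HISAT2 2.0.5, featureCounts 1.5.0 and build GRCh38 are named per the submitters' processing notes. No strand setting was named, and the annotation release is likewise not given in the sources used here. All results come from the counts. The deposited FPKM values imply library sizes between 0.967 and 1.03 of total counts and served only as a check. A gene name that a spreadsheet had turned into a date was restored from its identifier in 27 cases.

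Genes were tested with edgeR 4.0.16 (R 4.3.3; glmQLFit with robust fit, TMM scaling, filterByExpr with a minimum count of 10) fitted once to the 6 libraries by group. The filter kept 16340 genes, and the common biological coefficient of variation was 8.96%. Two-sided p-values were adjusted (Benjamini-Hochberg) over all genes tested, with a threshold of 0.05. Log2 fold changes are positive where the first-named group is higher. Low counts were compared as summed counts with an exact 95% interval. The procedure was run on simulated counts with the same spread for every gene and group. Since the spread of these libraries differed between groups, that run cannot show how the procedure behaves on them.

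The members and the gene lists (hyaluronan pathway, mitosis, cell type markers) were chosen with earlier results of these data known. The text names every member, HOXB9, and up to 4 called genes per pathway role (3 for mitosis) by lowest adjusted p, or where none was called the gene of highest level. ITIH5, UGDH, UGP2, CENPE and ASPM in KO with WT, and the neighbours of members, were named outside this rule. One pathway result that the rule names is not reported here. Promoters came from RefSeq and gene overlaps from GENCODE 29, whose coordinates matched for all 10 members; the 5 motifs were chosen with the sequences in view.

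The alternatives tried were scaling by RLE or by library size alone, the tools DESeq2 1.42.0 and limma-voom (limma 3.58.1), a filter at a mean of 5 CPM or none, a fit of the compared groups only, a replicate block, a GC content and length correction (loess, span 0.5), and leaving out each library. A lone library was then assumed to vary like the others. Python 3.11.15 (numpy 2.4.6, pandas 2.3.3, scipy 1.17.1, matplotlib 3.10.9) was used for the rest.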

Additional observations from a re-analysis of the deposited data

How the results depend on the processing

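HAS3 passed the test in all 3 comparisons under all 15 alternatives, and CD44 did in KO with WT. HAS2 passed in KO with WT under every alternative that tested it. The filter at a mean of 5 CPM left out HAS2 and HYAL1. Over the member genes and their comparisons, 323 values stayed on the same side of the threshold, 8 lost and 13 gained a call, and 10 uncalled values changed sign. The number of members called in T133A with WT, 2 in the main analysis, was 1 with library size only, 5 with the GC content and length correction, and 1 to 4 with a library left out (1 without either WT library, 4 without T133A replicate 2). With a library left out, the pathway genes called in T133A with WT went from 8 to between 3 and 13, the mitosis genes from 6 to between 3 and 9, and the mitosis genes in KO with WT from 12 to between 7 (without WT replicate 1) and 14. Sign changes were in hyaluronidases. HYAL2 in KO with WT was -0.088 with the GC correction, and in T133A with KO it was 0.0015 with a minimum mean of 5 CPM and 0.14 with the GC correction, where HYAL3 was 0.19. With a library left out, HYAL2 ran from -0.047 to 0.30 in T133A with WT and from -0.20 to 0.13 in T133A with KO, HYAL1 from -0.92 to 0.047 in KO with WT and from -0.66 to 0.31 in T133A with KO, and HYAL3 from -0.25 to 0.14 in T133A with KO. The cause was not tested. Of all genes called in T133A with WT, 912 were higher and 648 lower with TMM, and 668 and 818 with library size only. The GC correction called 2437, 8266 and 7664 genes (T133A with WT, KO with WT, then T133A with KO), against 1560, 7622 and 6523. Replicate numbers do not pair the libraries by their labels, and same-numbered libraries deviated with correlations of -0.05 (WT and T133A), 0.02 (WT and KO) and -0.12 (T133A and KO). With the replicate block, 2, 4 and 4 members, 7, 21 and 18 pathway genes and 6, 11 and 16 mitosis genes were called in the 3 comparisons. Of all 16340 genes tested, the block called 1419, 7165 and 6031. A crossed pairing of T133A with KO, added after seeing the data, called 4, 21 and 17, beside 6973 of all genes. Low counts limit HAS1, HYAL1, TNFAIP6, HABP2, LAYN and PTX3, and also HAS2, with 18 and 15 counts in KO.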

Other observations

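The cell type markers differed in direction within a list, and the genes given here were chosen after their values were seen. In KO with WT, 46.6% of all genes were called (23.6% higher, 23.0% lower), and nothing about a marker list is read from its calls. Of the 4 fibroblast markers tested, LUM, COL3A1 and DCN fell in KO with WT and COL1A1 rose (edgeR's quasi-likelihood test). LUM (lumican, a small matrix proteoglycan) had counts of 370 and 375 (WT), 358 and 433 (T133A) and 4 and 4 (KO), and its log2 fold change in KO with WT was -6.43 to -6.56 with each library left out in turn. COL1A1, a collagen chain, was at 0.57 (edgeR adjusted p = 0.0255), a call lost with DESeq2 (0.56, 0.0758) and without WT replicate 1 (0.58, 0.0883), WT replicate 2 (0.56, 0.102) or KO replicate 2 (0.48, 0.136). Of the 6 epithelial markers, EPCAM and CDH1 fell in KO with WT, KRT7 rose, and KRT8, KRT18 and KRT19 did not pass. EPCAM, an adhesion molecule, had counts of 248 and 304 (WT), 226 and 213 (T133A) and 32 and 32 (KO), with a log2 fold change of -3.10, and -2.98 to -3.20 with a library left out. CDH1 was at -0.88 (edgeR adjusted p = 1.34e-06), and the keratin KRT7 at 1.02 (1.38e-07), with KRT19 at 0.08 (0.642).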
